A study of Mus musculus with 16 samples.

Results

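The genes described here encode the contractile and calcium-handling machinery of skeletal muscle: myosins, actin, troponins, Z-disc and scaffold proteins, the calcium release and uptake proteins, and the enzymes that fuel contraction. They were chosen by name as a list of 36 genes, out of 16593 genes named on the array, and all probes that carry one of these names were used. A probe was found for 33 of the 36 genes, 47 probes in all. Myh2, Neb and Cacna1s had no probe under their names, so their expression was not analysed here. RNA had been profiled on 16 one-colour bead arrays, 1 per mouse, in 4 groups of 4 mice of the strain C3H/HeJ. The groups were Ali35 mutant bone and wild-type bone, both from mice aged 120 days, and Ali35 mutant brain and wild-type brain, both from mice aged 3 days. Ali35 is a mutant line with a mutation in Shc2, which encodes an adaptor of receptor tyrosine kinase signalling. The labels did not give zygosity, sex, the bone taken or how it was freed of soft tissue, and no probe was named Shc2.

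In a muscle fibre the membrane signal reaches the calcium release channel of the sarcoplasmic reticulum, and the released calcium binds troponin, which lets myosin pull on actin. Calcium is then pumped back and the cycle ends. Fast and slow fibres use different genes for many of these parts: fast fibres have their own myosin heavy chains, troponins and calcium pump, while slow fibres share several proteins with the heart and hold more myoglobin. Bone itself does not contract, and muscles attach to it. In bulk tissue, more fibres and more RNA per fibre cannot be told apart.

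Stretches of 250 bases before the annotated transcription start are shown for 3 genes that were higher in Ali35 bone (Ryr1, Myh4 and Pygm) and for Myh1, the neighbour of Myh4 in the fast myosin cluster, which did not pass the test. They are RefSeq sequences of the reference strain, build GRCm38.p6, written in the direction of transcription, and the mice studied were of another strain. The start used for Ryr1 lies just inside the annotated gene span. The windows are chr7:29125152-29125401 (minus strand), chr11:67237562-67237811 (plus strand), chr19:6384158-6384407 (plus strand) and chr11:67199852-67200101 (plus strand). Capitals mark every match, on either strand, to the E-box CAGCTG bound by myogenic factors, the TATA box TATAAA, the MEF2 motif and the CArG box bound by serum response factor.
Ryr1: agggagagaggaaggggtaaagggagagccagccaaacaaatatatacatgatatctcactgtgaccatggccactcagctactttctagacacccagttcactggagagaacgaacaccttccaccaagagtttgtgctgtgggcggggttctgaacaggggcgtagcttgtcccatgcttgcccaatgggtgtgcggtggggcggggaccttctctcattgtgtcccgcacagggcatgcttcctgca
Myh4: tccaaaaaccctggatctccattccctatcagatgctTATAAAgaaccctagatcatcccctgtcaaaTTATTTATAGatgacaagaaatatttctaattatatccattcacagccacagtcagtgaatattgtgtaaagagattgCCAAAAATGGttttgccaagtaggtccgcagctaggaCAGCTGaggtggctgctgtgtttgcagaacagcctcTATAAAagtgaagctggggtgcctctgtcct
Pygm: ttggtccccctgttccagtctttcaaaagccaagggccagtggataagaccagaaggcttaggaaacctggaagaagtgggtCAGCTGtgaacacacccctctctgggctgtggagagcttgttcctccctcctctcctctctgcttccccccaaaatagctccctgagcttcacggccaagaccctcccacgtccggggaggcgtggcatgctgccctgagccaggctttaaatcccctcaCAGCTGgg
Myh1: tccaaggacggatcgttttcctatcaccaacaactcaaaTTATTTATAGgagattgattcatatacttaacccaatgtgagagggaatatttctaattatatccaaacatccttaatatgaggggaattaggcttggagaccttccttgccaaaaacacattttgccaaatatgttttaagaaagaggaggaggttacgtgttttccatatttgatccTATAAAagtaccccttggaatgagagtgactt

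Both myosin windows held a MEF2 match, which began 182 bases before the start in Myh4 and 211 bases before it in Myh1. One reverse-strand TATAAA match lay inside each of these MEF2 matches. Each also had a TATA box close to the start, at 31 bases in Myh4 and 32 bases in Myh1. Myh4 alone of this pair also had an E-box, at 67 bases, and a CArG box, at 104 bases. Pygm had 2 E-boxes, at 168 and 8 bases, and the Ryr1 window held no match to any of the 4 motifs. Of 28 listed genes with a promoter in the table, 13 had the E-box, 5 TATAAA, 5 the MEF2 motif and 3 the CArG box, while among all 32851 promoter windows of this length 13.0% had the E-box, 12.4% TATAAA, 2.92% the MEF2 motif and 1.47% the CArG box. A single window was taken per listed gene, Cacna1s among them, while the 32851 windows were not reduced to a single window per gene. A match describes these letters only.

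The arrays of a group correlated with r from 0.977 to 0.991 in bone and from 0.983 to 0.992 in brain, across the probes tested. Bone was checked by 10 osteoblast and bone matrix genes, of which 9 had a probe, with summed intensities of 38192 to 57151 in Ali35 bone and 27060 to 40819 in wild-type bone. A set of 6 neuronal genes summed to 7653 to 8158 in Ali35 brain and 8042 to 8939 in wild-type brain, and to at most 76.1 on any bone array. One array stood apart: on the first Ali35 bone array (replicate 1) the female-specific RNA Xist read 221, against at most 11.7 on the other 7 bone arrays, and the Y-linked gene Eif2s3y read -2.50, against at least 409.7 on them.

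In bone, 31 of the 36 genes passed the filter on dim probes with 42 probes, and 12 of these probes changed between Ali35 and wild type. The genes higher in Ali35 were Ryr1, Atp2a1, Myh4, Actn3, Ttn, Pygm and Tpm2, by 1.34-fold to 2.50-fold on the probes called, and myoglobin (Mb) was lower on 1 of its probes. The other 23 tested genes, among them the abundant fast fibre genes Tnnc2, Tnni2, Tnnt3, Mylpf and Myl1, did not pass. The 12 called probes are 28.6% of the 42 tested, near the 24.6% called among all 12223 probes. Of the 42, 11 were higher, or 26.2%, where 12.7% of all probes were higher, and 1 was lower, where 11.9% of all were lower. The 11 stand for 7 genes, since probes of 1 gene share a transcript. On the brightest probe of each gene, 6 of the 31 were higher and 0 lower, since Tpm2 and Mb were called only on dimmer probes. The call rests on limma with Benjamini-Hochberg adjustment over all probes and a limit of 0.05, on log2 intensities with values under 16 set to 16, and errors of log2 changes are moderated standard errors. Of the 42 probes, 11 had groups that did not overlap (26.2%), against 28.7% of all probes. The median log2 change over the brightest probes of the 31 genes was 0.22, and over all probes tested it was -0.04. With wild-type replicate 1 or wild-type replicate 4 omitted, 6 probes were called in place of 12, and 7 with wild-type replicate 2 or Ali35 replicate 4 omitted. With Ali35 replicate 1 omitted, the array of the Xist signal, 9 were called, and Atp2a1, Ttn and 1 Tpm2 probe were not. With no filter on dim probes, which also let them into the variance model, 1 was called.

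**Figure D1:**
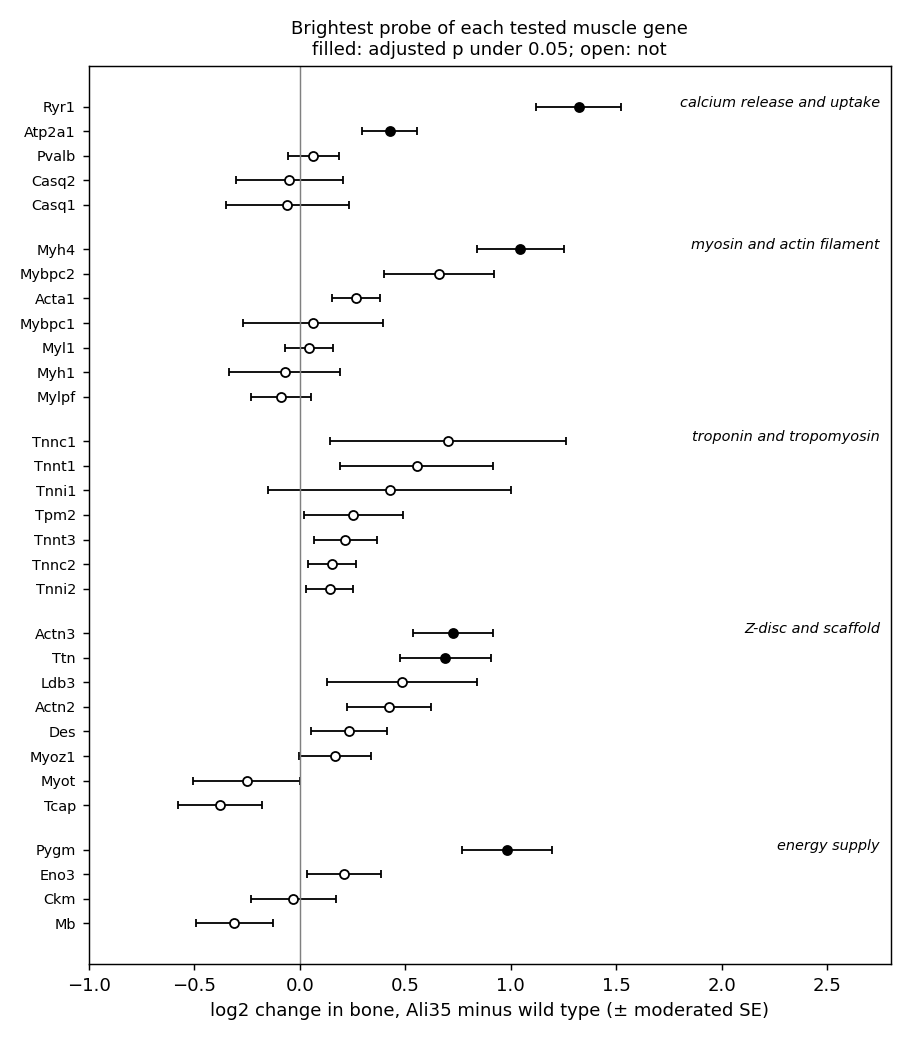
Log2 change in bone (Ali35 minus wild type, n = 4 mice each) of the brightest probe of each of the 31 tested genes, grouped by role, with the moderated SE as bars. Filled points passed an adjusted p of 0.05; Ryr1 lies furthest to the right at 1.32, and Tcap furthest to the left at -0.38 without passing.

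Among the calcium genes, Ryr1 encodes the release channel of the sarcoplasmic reticulum (gene span chr7:29003340-29125179, GRCm38.p6). Its brightest probe read 5876, 2835, 3974 and 5003 in Ali35 bone and 1813, 1814, 1642 and 1565 in wild-type bone. All 4 Ali35 arrays lay above all wild-type arrays, and they also spread more widely. The means were 4422 ± 1313 in Ali35 bone and 1709 ± 125 in wild-type bone (SD, n = 4 mice per group), a 2.50-fold rise (log2 1.32 ± 0.20, adjusted p = 0.00283, limma). Both further bright Ryr1 probes rose as well, by 1.11 ± 0.21 and 1.11 ± 0.23 on the log2 scale, while another probe, close to the floor at 16.9 to 20.4 in Ali35 and 12.9 to 18.7 in wild type, had 0.14 ± 0.10 and did not pass. All 3 bright probes passed in each of the 8 fits that omitted 1 array, with adjusted p up to 0.0335 (limma).

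Atp2a1, the calcium pump of fast fibres (chr7:126445858-126463103), read 23295, 16980, 19776 and 24009 in Ali35 bone and 15713, 16386, 15977 and 14006 in wild-type bone. The groups did not overlap, but Ali35 replicate 2 lay only just above the highest wild-type array. The rise was 1.34-fold (log2 0.43 ± 0.13, adjusted p = 0.039, limma), and it lost its call when any 1 of 7 of the 8 arrays was left out, with adjusted p up to 0.109, and with the replicate number as a block (adjusted p = 0.0801). Casq1, the calcium store protein of fast fibres, had -0.06 ± 0.29, its slow and cardiac relative Casq2 had -0.05 ± 0.26, and Pvalb, the calcium buffer parvalbumin, had 0.06 ± 0.12; none of these 3 passed. Trdn, which anchors calsequestrin to the release channel, read at most 3.56 on every bone array and was not tested.

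**Figure D2:**
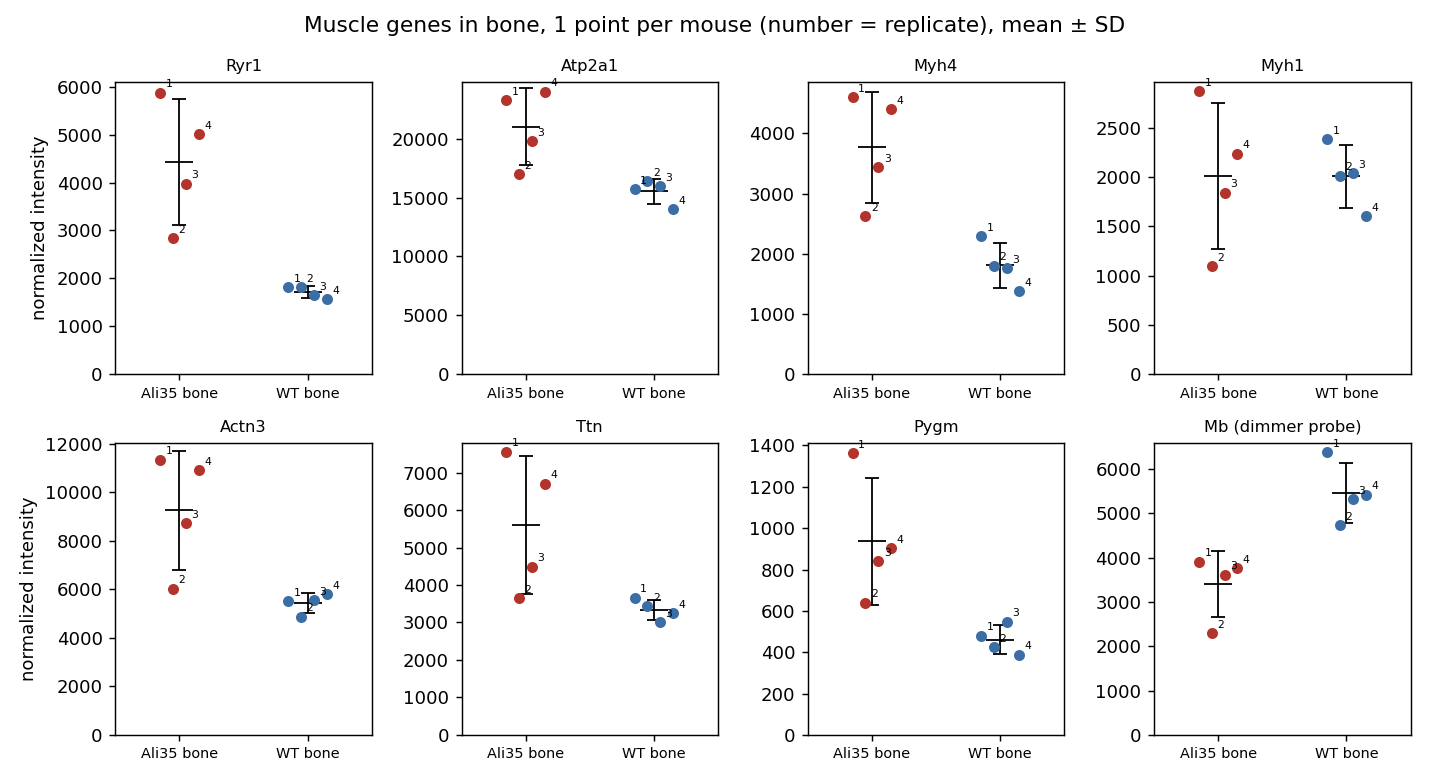
Normalized intensity in bone of 8 genes, 1 point per mouse with its replicate number, and mean ± SD (n = 4), Ali35 on the left. Ryr1, Atp2a1, Myh4, Actn3 and Pygm lie higher in every Ali35 mouse than in any wild-type mouse, Ttn and Myh1 overlap, and the dimmer Mb probe lies lower in every Ali35 mouse.

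Of the motor proteins, the myosin heavy chain of the fastest fibres, Myh4 (chr11:67237812-67260447), rose. It read 4599.9, 2622, 3434 and 4406 in Ali35 bone and 2296, 1803, 1759 and 1378 in wild-type bone, with no overlap between the groups. The change was 2.06-fold (log2 1.05 ± 0.21, adjusted p = 0.00785, limma) and passed in all 8 fits that omitted 1 array, at adjusted p up to 0.0257. Myh1 (chr11:67200102-67224577), another fast myosin heavy chain, read 2874, 1094, 1842 and 2237 in Ali35 bone and 2387, 2015, 2037 and 1605 in wild-type bone. The Ali35 arrays lay on both sides of the wild-type arrays, and the change was -0.07 ± 0.26 on the log2 scale (adjusted p = 0.87, limma). A second, dim Myh1 probe had 0.41 ± 0.33 and did not pass either.

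The balance of Myh4 to Myh1 was set side by side within each array, a pair chosen after the values were seen, so it is given with no test. The log2 ratio of the Myh4 probe to the brightest Myh1 probe was 0.68, 1.26, 0.90 and 0.98 in Ali35 bone and -0.06, -0.16, -0.21 and -0.22 in wild-type bone. The means were 0.95 ± 0.24 in Ali35 and -0.16 ± 0.08 in wild type (SD, n = 4). Ali35 replicate 2, the array with the lowest Myh4 and Myh1 of its group, had the highest ratio. The level of such a ratio depends on the probes, and only its difference between groups can be read. The ratio of Ryr1 to Atp2a1 was set out likewise and was -1.99, -2.58, -2.32 and -2.26 in Ali35 bone and -3.12, -3.18, -3.28 and -3.16 in wild-type bone. The ratio of Actn3 to Actn2 was 1.25, 1.38, 1.64 and 1.81 in Ali35 bone. In wild-type bone it was 1.08, 1.06, 1.26 and 1.46, so the groups overlapped. The ratio of the brighter Mb probe to Myh4 was 1.43 to 1.79 in Ali35 bone and 2.70 to 3.32 in wild-type bone.

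**Figure D3:**
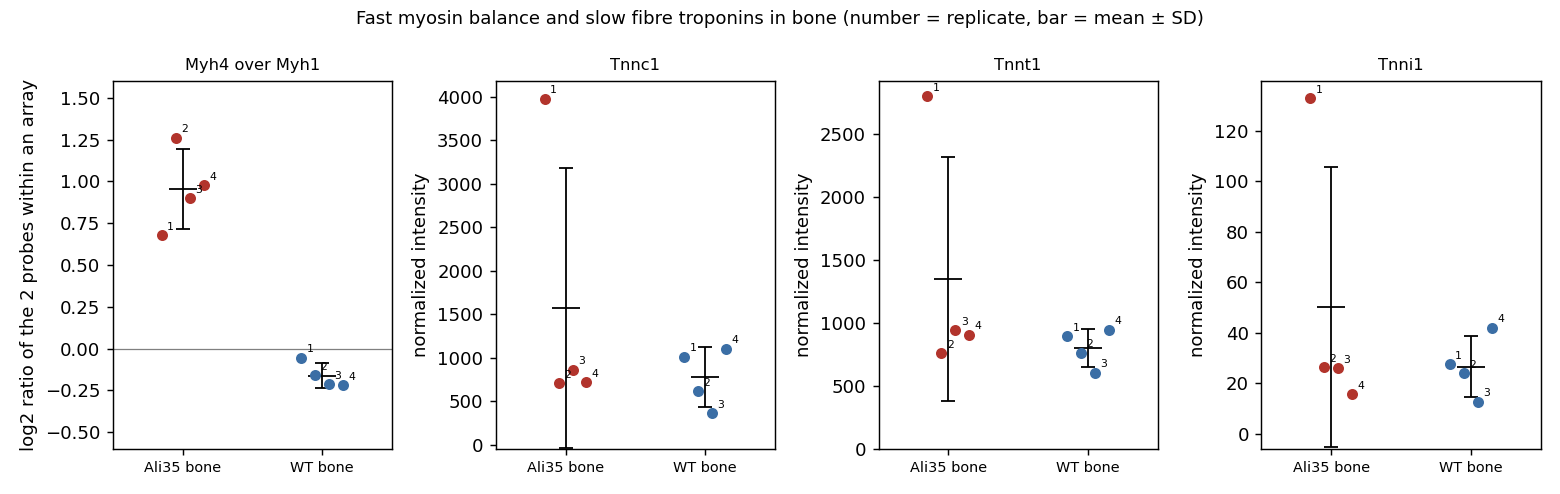
Log2 ratio of the Myh4 to the Myh1 probe within each bone array, and the intensities of the slow fibre troponins Tnnc1, Tnnt1 and Tnni1, 1 point per mouse with mean ± SD (n = 4), Ali35 on the left. The ratio lies at 0.68 or above in every Ali35 mouse and below 0 in every wild-type mouse, while Ali35 replicate 1 stands far above all others for the 3 troponins.

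The other filament genes did not pass. Mybpc2, the myosin-binding protein of fast fibres, read 1810.2, 758, 1217 and 1708 in Ali35 bone and 995, 885, 789 and 661 in wild-type bone, and its change of 0.66 ± 0.26 did not pass (adjusted p = 0.0915, limma). Ali35 replicate 2 lay within the wild-type range and the other 3 Ali35 arrays above it. Its slow relative Mybpc1 had 0.06 ± 0.33. Acta1, skeletal muscle actin, read 26502, 23303, 24731 and 31190 in Ali35 bone and 22102, 21459, 23060 and 20708 in wild-type bone, so that the groups did not overlap, but its change of 0.27 ± 0.11 did not pass (adjusted p = 0.11, limma). The fast regulatory light chain Mylpf had -0.09 ± 0.14 and the fast essential light chain Myl1 had 0.04 ± 0.11. Acta1, Mylpf, Myl1, Tnnc2 and Pvalb had means over 20000 in both bone groups, on arrays whose brightest probe read 30547 to 38608, and whether the scale compresses changes so close to its top was not tested. Myh7, the slow myosin heavy chain, read at most 13.7 on any bone array and was not tested.

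The troponins and tropomyosin of the thin filament form the calcium switch. All 7 tested genes had positive changes on their brightest probes, and 0 passed on that probe in limma (0 also at an unadjusted p under 0.05). The fast troponins lay close together, with 0.15 ± 0.11 for Tnnc2, the calcium-binding subunit, 0.14 ± 0.11 for Tnni2, the inhibitory subunit, and 0.22 ± 0.15 for Tnnt3, the tropomyosin-binding subunit. Tpm2, beta-tropomyosin, gave different answers by probe. Its brightest probe had 0.25 ± 0.23 (adjusted p = 0.451), a second had 0.67 ± 0.21 (adjusted p = 0.0453) and the dimmest had 1.04 ± 0.26 (adjusted p = 0.0191, all limma). The dimmest probe read 245, 90.6, 152 and 161 in Ali35 bone and 77.3, 66.9, 88.4 and 66.1 in wild-type bone, with no overlap between groups. The second probe lost its call without any 1 of 6 arrays, with adjusted p up to 0.119, and the dimmest without wild-type replicate 4, at 0.0558.

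The slow fibre troponins were set apart by 1 array. Tnnc1, the calcium-binding subunit of slow and cardiac muscle, read 3981, 707, 863 and 719 in Ali35 bone and 1011, 614, 363 and 1103 in wild-type bone. Tnnt1, the slow tropomyosin-binding subunit, read 2796, 759, 941 and 904 in Ali35 bone and 891, 763, 605 and 944 in wild-type bone, and Tnni1, the slow inhibitory subunit, 133, 26.2, 25.9 and 15.5 in Ali35 bone and 27.5, 23.9, 12.6 and 42.0 in wild-type bone. For all 3, the Xist-positive array, Ali35 replicate 1, read highest of the 8, and the other 3 Ali35 arrays lay within the range of the wild-type arrays. Their changes were 0.70 ± 0.56, 0.55 ± 0.36 and 0.43 ± 0.58, and none passed. Genes outside the list were also highest on that array: Myl2, the slow and cardiac regulatory light chain, read 6022, 1405, 2115 and 1683 in Ali35 bone and 2392, 1805, 1673 and 2885 in wild-type bone, and Actc1, cardiac and embryonic actin, 1673, 174, 147 and 160.2 in Ali35 bone and 78.9, 77.2, 77.0 and 50.0 in wild-type bone. For Actc1 the other 3 Ali35 arrays also lay above wild type, and its change of 2.05 ± 0.68 had an adjusted p of 0.0537 (limma). The heart muscle gene Myh6 was dim throughout, at 67.4 or less.

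In the Z-disc and scaffold, Actn3, the alpha-actinin of fast fibres (chr19:4861216-4877909), rose on 2 of 3 probes. The brightest read 11343, 6024, 8741 and 10916 in Ali35 bone and 5517, 4875, 5549.7 and 5809 in wild-type bone, without overlap, a 1.66-fold difference (log2 0.73 ± 0.19, adjusted p = 0.0223, limma). The second had 0.74 ± 0.20 (adjusted p = 0.0238), and the third, with overlapping groups, 0.69 ± 0.33 (adjusted p = 0.15, both limma). The brightest probe lost its call without wild-type replicate 1, wild-type replicate 2 or Ali35 replicate 4, with adjusted p up to 0.0567. Actn2, the alpha-actinin present in all fibre types, read 4776, 2313, 2809 and 3114 in Ali35 bone and 2613, 2338, 2324 and 2116 in wild-type bone, and its change of 0.42 ± 0.20 did not pass.

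Ttn, the giant spring protein titin (chr2:76703980-76982557), read 7561, 3645, 4493 and 6705 in Ali35 bone and 3658, 3427, 3012 and 3251 in wild-type bone. The groups touched, with Ali35 replicate 2 just below the highest wild-type array, and the rise was 1.61-fold (log2 0.69 ± 0.22, adjusted p = 0.0431, limma), lost without any 1 of 6 arrays (adjusted p up to 0.0979). Tcap, which caps titin at the Z-disc, read 6842, 4308, 6757 and 8784 in Ali35 bone and 9473, 8452, 8839 and 7058 in wild-type bone and had a negative change of -0.38 ± 0.20 (adjusted p = 0.194, limma), which did not pass. Of the remaining Z-disc and scaffold genes, the alpha-actinin-binding Ldb3 had 0.48 ± 0.36, the intermediate filament gene Des 0.23 ± 0.18, the calcineurin-binding Myoz1 0.17 ± 0.17 and the actin cross-linker Myot -0.25 ± 0.25, and none passed.

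Of the energy supply genes, Pygm was higher and 1 of the 2 Mb probes lower. Pygm, muscle glycogen phosphorylase (chr19:6384408-6398464), read 1363, 639, 839.7 and 902 in Ali35 bone and 480.4, 423, 547 and 388 in wild-type bone. Every Ali35 array lay above every wild-type array, the difference was 1.98-fold (log2 0.98 ± 0.21, adjusted p = 0.0113, limma), and it passed in all 8 fits that omitted 1 array (adjusted p up to 0.0379). Mb, the oxygen store of oxidative fibres (chr15:77015487-77050668), fell on its dimmer probe, which read 3910, 2292, 3609 and 3760.1 in Ali35 bone and 6377, 4729, 5312 and 5416 in wild-type bone. The groups did not overlap, and the log2 change was -0.71 ± 0.18 (adjusted p = 0.0202, limma), lost without wild-type replicate 1 or wild-type replicate 4 (adjusted p up to 0.058). The brighter Mb probe read 12393, 7752, 10613 and 15227 in Ali35 bone and 14938, 13354, 13349 and 13763 in wild-type bone, with Ali35 replicate 4 above all wild-type arrays, and its -0.31 ± 0.18 did not pass. Ckm, muscle creatine kinase, had -0.03 ± 0.20 and Eno3, muscle enolase, 0.21 ± 0.17, and neither passed.

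The 4 Ali35 bone arrays spread more widely in these genes than the wild-type arrays did. The summed intensity of the brightest probes of the 33 genes was 310030, 218940, 256060 and 318200 in Ali35 bone and 258430, 238010, 246820 and 232350 in wild-type bone, so the groups overlapped. Ali35 replicate 1 had the highest value of the 8 arrays for 20 of the 31 tested genes. Ali35 replicate 2 had the lowest value of its group for 27 of the 31 and the lowest of all 8 for 15. The median deviation from the gene mean was 0.56, -0.31, 0.02 and 0.29 on the log2 scale in Ali35 bone and 0.01, -0.21, -0.14 and -0.14 in wild-type bone.

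**Figure D4:**
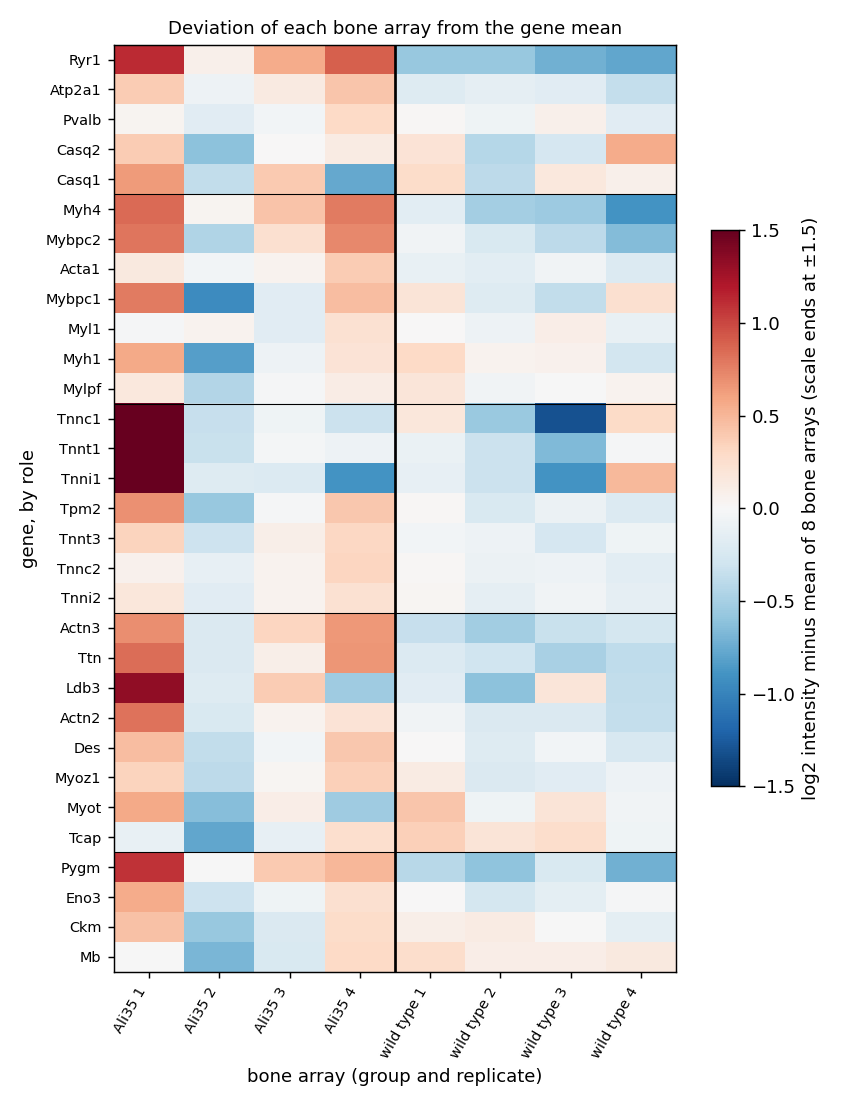
Log2 intensity of the brightest probe of each of the 31 tested genes minus its mean over the 8 bone arrays, genes by role in rows and arrays in columns, the 4 Ali35 arrays left of the line. Ali35 replicate 1 is high and Ali35 replicate 2 low for most genes, and Ryr1 and Myh4 are above their mean in all Ali35 arrays and below it in all wild-type arrays.

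The general muscle level of an array was therefore measured in sarcomere genes outside the list, of which 32 of 43 had a probe and 25 were tested. Their median deviation was 0.56, -0.39, -0.08 and 0.13 in Ali35 bone and 0.13, -0.19, -0.08 and 0.03 in wild-type bone. After this level was subtracted from each array, an alternative chosen after the data were seen, 6 of the 12 probes were still called, all higher. They were the 3 Ryr1 probes, of which the brightest had 1.24 (adjusted p = 0.00424, limma), Myh4 with 0.96 (adjusted p = 0.0313, limma), Pygm with 0.90 (adjusted p = 0.0427, limma) and the dimmest Tpm2 probe with 0.95 (adjusted p = 0.0315, limma). Actn3 had 0.64 (adjusted p = 0.164, limma), Atp2a1 0.34 (adjusted p = 0.506, limma), Ttn 0.60 (adjusted p = 0.195, limma) and the dimmer Mb probe -0.79 (adjusted p = 0.0745, limma), and none of these 4 was called. The subtraction was applied to every probe tested in bone, muscle gene or not. The errors of these 4 rose to 0.25, from 0.19 for Actn3, 0.13 for Atp2a1, 0.22 for Ttn and 0.18 for Mb. Without the subtraction the change of that Mb probe was smaller, at -0.71. A call lost here therefore does not measure the part of the muscle level in a change. A call kept does not measure it either, because the subtraction shifted the log2 change of every probe by the same amount. The change went from 1.32 to 1.24 for the brightest Ryr1 probe, from 1.05 to 0.96 for Myh4 and from 0.98 to 0.90 for Pygm. With the same level as a covariate, the errors of Actn3, Atp2a1, Ttn and the dimmer Mb probe were 0.11 to 0.12. All 12 probes were then called, and Mybpc2 and Actn2 as well. The part of attached muscle in these values was not tested beyond this.

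Counted by fibre type, 3 of 13 tested fast fibre genes were higher on their brightest probe (Myh4, Actn3 and Atp2a1) and 0 were lower, with a median log2 change of 0.15, where 12.7% of all bone probes were higher and 11.9% lower. Of these 3, Atp2a1 lost its call in 7 of 8 fits that omitted 1 array and with the replicate block, and Actn3 in 3 of 8. Of 5 tested slow fibre genes, 0 passed on their brightest probe in limma (0 also at an unadjusted p under 0.05) and the median was 0.43, which turned to -0.18 without Ali35 replicate 1. Mb, the oxygen store of oxidative fibres, was counted with the slow fibre genes, and its dimmer probe was the only one of theirs called, lower in Ali35. The slow troponins Tnnc1, Tnnt1 and Tnni1 did not pass in either direction. The median deviation of the 5 slow fibre genes from their means was 1.55, -0.35, -0.06 and -0.08 in Ali35 bone, so that replicate 1 stood apart. In wild-type bone it was 0.17, -0.33, -0.66 and 0.29.

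The other genes of the same machinery were read from 4 further lists. Of 76 tested genes outside the list of 36, each counted on its brightest tested probe, 10 were higher and 4 lower. These 14 are 18.4% of the genes tested, below the 24.6% of all bone probes, and the 10 higher are 13.2%, near the 12.7% of all bone probes, so calls in these lists, each with few genes, were no more frequent than over the whole array. Counted likewise on 1 probe per gene, 6 of the 31 tested genes of the list of 36 were higher and 0 lower. The shares of 28.6% called and 26.2% higher given for that list count every probe, so they are not in the same unit as the 18.4% and 13.2%. In the sarcomere, Mypn, a titin- and nebulin-binding Z-disc protein, rose by 1.35 ± 0.25, and Xirp1, an actin-binding repair protein, by 1.31 ± 0.26, while Myl4, the atrial and embryonic light chain, fell to 820.4 ± 226 in Ali35 bone, against 1635 ± 139.5 in wild-type bone (log2 -1.04 ± 0.20, adjusted p = 0.00663, limma). The brightest sarcomere genes Tmod4 (-0.37 ± 0.20), Myl3 (-0.30 ± 0.31) and Tpm1 (-0.19 ± 0.10) did not pass, and the median of the 25 tested was 0.01.

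Among 24 tested genes of calcium handling and excitation, 3 were higher and 1 lower, and the median was 0.09. Orai1 (0.66 ± 0.14) and Stim1 (0.52 ± 0.13), the channel and sensor of store-operated calcium entry, and the calcium channel gene Itpr3 (0.74 ± 0.17) rose. All 3 are expressed in many cell types besides muscle. S100a1, a calcium-binding partner of the release channel, fell by 0.57 ± 0.14. The reticulum calcium-binding gene Hrc (0.38 ± 0.27), the slow and cardiac calcium pump gene Atp2a2 (0.45 ± 0.25) and Fkbp1a (0.07 ± 0.12), which binds the release channel, did not pass.

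Of 20 tested genes of muscle metabolism and upkeep, 3 rose and 1 fell, with a median of 0.16. The small heat shock protein gene Hspb6 rose by 0.76 ± 0.17, the glycolytic aldolase gene Aldoa by 0.64 ± 0.16 and the translation factor gene Eef1a2 by 0.90 ± 0.27, and Fabp3, the fatty acid carrier of oxidative muscle, read 3028, 1368, 1803 and 2236 in Ali35 bone and 4803, 3426, 2685 and 4271 in wild-type bone and fell (-0.87 ± 0.25, adjusted p = 0.0326, limma). Muscle phosphofructokinase, Pfkm (0.27 ± 0.15), and the muscle cytochrome oxidase subunits Cox6a2 (0.21 ± 0.21) and Cox8b (-0.29 ± 0.19) did not pass. The call of Eef1a2 was lost without any 1 of 7 arrays, with adjusted p up to 0.11, and that of Fabp3 without any 1 of 5, up to 0.0897.

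Of 7 tested myogenic regulators, 2 rose and 1 fell. Nfix, a transcription factor that in muscle governs the switch from embryonic to fetal fibres and is also expressed widely, read 2153, 1219, 1596 and 1323 in Ali35 bone and 466, 401, 639.6 and 307 in wild-type bone (1.81 ± 0.24, adjusted p = 0.00158, limma). Vgll2, a muscle-enriched cofactor, rose by 0.96 ± 0.28, with Ali35 replicate 1 the highest at 517 and the other Ali35 arrays at 182 to 256. Myog, the differentiation factor myogenin, read 43.8, 42.4, 62.9 and 41.2 in Ali35 bone and 69.6, 72.0, 68.9 and 62.2 in wild-type bone and had -0.54 ± 0.14 (adjusted p = 0.0246, limma). The myogenic factors Mef2c (0.09 ± 0.16), Myf6 (-0.39 ± 0.18) and Mef2a (-0.26 ± 0.26) did not pass, and the median of the 7 was -0.26. Vgll2 lost its call without any 1 of 4 arrays, and Myog without any 1 of 5, with adjusted p up to 0.0826 and 0.0627.

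In newborn brain most of the muscle genes lay below the floor of 16 that was set for the fits. Of the 33 genes with a probe, 23 lay below 16 on all 8 brain arrays, and 8 genes with 10 probes were tested: Ryr1, Actn2, Tnnc1, Tnnt1, Acta1, Myl1, Pvalb and Eno3. None of the 10 probes passed in limma, and 0 had an unadjusted p under 0.05, where 3.64% of all 10922 brain probes were called (1.9% higher and 1.74% lower). The brightest probe of Acta1 read 129, 119.5, 66.0 and 84.4 in Ali35 brain and 76.1, 78.4, 64.1 and 87.8 in wild-type brain (log2 0.34 ± 0.20). Pvalb, which also marks a class of inhibitory neurons later in life, read 111, 109, 102 and 120.2 in Ali35 brain and 126, 115, 86.3 and 116 in wild-type brain (log2 0.01 ± 0.12). For Acta1, 2 Ali35 arrays lay above all wild-type arrays and the other 2 among them, and for Pvalb the genotypes overlapped. Ali35 brain replicate 1 read 87.8 for Myl1, and the other 7 brain arrays 12.7 to 30.4. Actn2, Tnnc1, Tnnt1 and Eno3 had log2 changes from 0.16 to 0.37.

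The difference between tissues could be tested for those 10 probes, and 24.4% of the 9225 probes tested for it were called. It was called for the 3 bright Ryr1 probes, with a change in bone minus a change in brain of 1.11 ± 0.28, 1.32 ± 0.30 and 1.32 ± 0.31 (adjusted p = 0.00917, 0.00538 and 0.00593, limma interaction term). In brain the brightest Ryr1 probe read 71.8, 55.3, 43.5 and 42.8 in Ali35 brain and 36.9, 53.0, 46.9 and 44.9 in wild-type brain, and the changes of the 3 probes were 0.21 ± 0.17, -0.20 ± 0.19 and -0.21 ± 0.17. The second probe lay below 16 on 2 of 4 Ali35 brain arrays, so its change depends on the floor. The third read 16.5 to 29.6 on the brain arrays, also close to the floor, where a fall could hardly show. None of the other 7 probes passed. Tissue and age changed together and cannot be told apart.

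**Figure D5:**
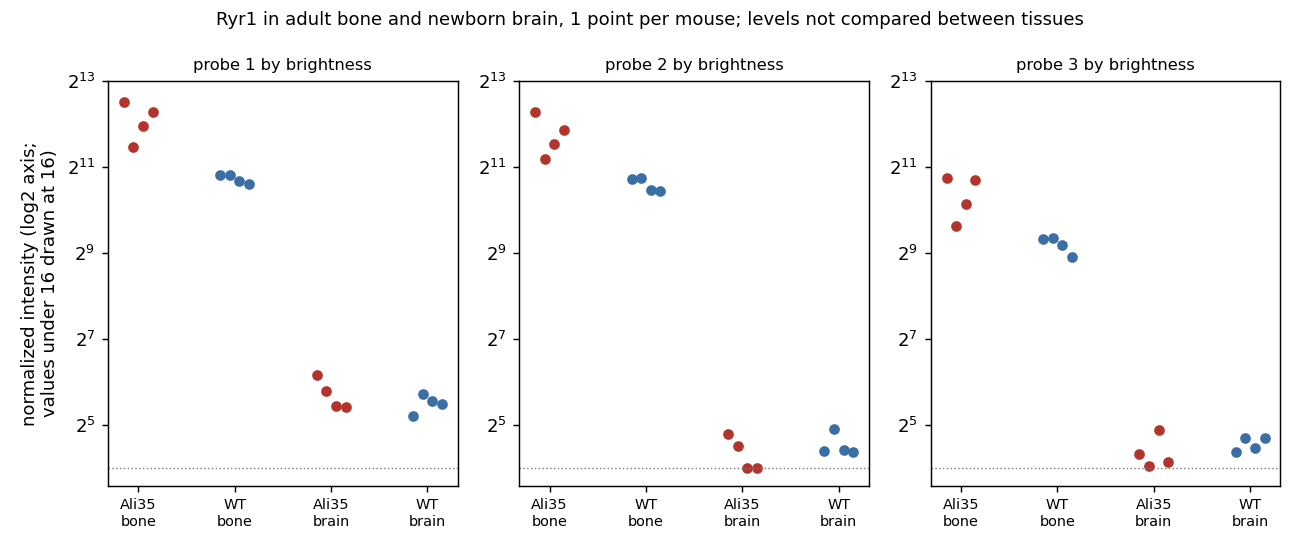
Normalized intensity of the 3 bright Ryr1 probes on a log2 axis, 1 point per mouse, in Ali35 and wild-type bone and in Ali35 and wild-type brain (values under 16 are drawn at the dotted line at 16). In bone every Ali35 point lies above every wild-type point, and in brain the points of both genotypes overlap, all at 71.8 or below.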

How the data were processed

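Per the labels' protocols, total RNA was extracted with Trizol, cleaned on columns and turned into biotinylated cRNA for Illumina arrays, 1 array per mouse. The deposited values are intensity values on a linear scale, and the submitters' processing notes name GenomeStudio 2011.1. Some are below 0; background subtraction and the normalization method are not given in the sources used here. The 32 columns of a non-normalized table matched no sample label and were not used. Probe names came from the platform annotation (23978 of 25697 probes had 1 gene symbol and 1719 none), updated through a RefSeq table of GRCm38.p6, which held the Entrez identifiers of 23962 probes.

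Values under 16 were set to 16 and log2 values taken, and probes that reached 16 on 4 or more of the 8 arrays of a tissue were tested there (12223 probes in bone, 10922 in brain). On each array 47.3% (bone) or 42.3% (brain) of probes reached 16, and the number of arrays limits the precision. Each tissue was fitted with limma 3.58.1 in R 4.3.3, Ali35 minus wild type, with 6 residual degrees of freedom, and the difference between tissues as an interaction over all 16 arrays. Tests were two-sided, and fits were checked on simulated data. All 36 listed genes were named, and from each further muscle list up to 6 called genes and the 3 brightest that did not pass; Myl2, Actc1 and Myh6 were chosen after their values were seen. Sequences come from RefSeq. Nothing in the labels says that mice of a group came from separate litters. The members, lists and tests were chosen with earlier results of these data known. Alternatives covered scaling, floor, filter, variance model, replicate block, muscle level and single arrays. Figures were drawn with matplotlib 3.10.9 under Python 3.11.15.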

Additional observations from a re-analysis of the deposited data

Results flagged for a closer look

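Each tested gene was looked at in each group of 4 mice, 78 sets of 4 values that share the same 16 mice, and in 4 of the 78 sets 1 array stood far from the other 3. Chance alone gives about 1 in 20 such sets. Tnnc1 read 3981 and Tnnt1 read 2796 in Ali35 bone replicate 1, the Xist-positive array, above all other bone arrays. Tnnt3 read 8480 in wild-type bone replicate 3, and Myl1 read 87.8 in Ali35 brain replicate 1. The causes were not tested. The change of the 3 bright Ryr1 probes differed between tissues in the interaction test, by 1.11, 1.32 and 1.32 on the log2 scale (bone minus brain), with bone from mice of 120 days and brain from mice of 3 days.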

How the results depend on the processing

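In bone, 12 probes were called. The count was 1 without the filter, when all 25697 probes were tested, and 6 after subtraction of the other sarcomere level; leaving out 1 array gave 6 to 13, and leaving out Ali35 replicates 1 and 2 gave 11. In brain it was 0 under the alternatives run. For the difference between tissues it was 3, and 1 with a floor of 32. For the other muscle genes it was 14, and 1 without the filter, 22 with the sarcomere level as a covariate, 6 after its subtraction and 8 to 17 without 1 array. The same-numbered mice were not treated as paired in the main fits. Their deviations correlated at 0.16, 0.03, -0.01 and -0.12 in bone and 0.01, 0.14, 0.09 and 0.13 in brain. Such values cannot show whether these mice shared a litter or a batch. With the replicate number as a block the counts were 11 in bone, 0 in brain, 3 for the difference and 15 for the other muscle genes. Changes that did not pass could turn sign. Without Ali35 replicates 1 and 2, a choice made after the data were seen, the change was 0.0278 for Myh1, -0.34 for Tnni1, 0.0195 for Ckm, 0.0061 for Mylpf and 0.0430 for Casq2. Myl1 had -0.0033 with quantile normalization and -0.0427 after subtraction of the sarcomere level, Mybpc1 -0.0924 with it as a covariate and -0.0242 after subtraction, and Pvalb -0.0215 after subtraction. Without 1 array, the range in bone was -0.27 to 0.20 for Myh1, -0.22 to 0.80 for Tnni1, -0.18 to 0.15 for Ckm, -0.16 to 0.0438 for Mylpf, -0.0258 to 0.11 for Myl1, -0.19 to 0.39 for Mybpc1, -0.28 to 0.19 for Casq1, -0.20 to 0.15 for Casq2 and -0.0239 to 0.13 for Pvalb. In brain it was -0.20 to 0.62 for Myl1 and -0.11 to 0.0745 for Pvalb. In bone, 542 values kept direction and call, 52 lost the call, 5 gained it and 28 turned sign. Other causes were not tested.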

Other observations

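Markers of other cell types in bone are given as values. Among all probes tested in bone, 12.7% were higher and 11.9% lower, so a single call in a small list is not read as a change of that cell type. Of 6 tested cartilage genes, 4 were higher in Ali35 bone, with a median log2 change of 1.33 and summed intensities of 9004 to 12603 in Ali35 bone and 2186 to 4333 in wild-type bone. Of 8 tested osteoblast genes 4 were higher (median 0.50), and of 4 smooth muscle genes 1 was higher (median 0.48, sums of 3474 to 5288 in Ali35 bone and 2752 to 3320 in wild-type bone). Of 7 neutrophil genes 1 was higher (median 0.15), and of 5 fat cell genes 1 was lower (median -0.19). Of 3 tendon, 4 erythroid, 2 heart muscle, 2 neuronal and 2 glial genes tested, 0 passed in limma. The heart muscle genes summed to 175 to 1738 in Ali35 bone and 72.4 to 96.2 in wild-type bone. The part of these cell types in the muscle gene values was not tested.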
